A study of Mus musculus with 8 samples.

Results

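The genes described here build the junctions that join kidney tubule cells to their neighbours: tight junctions, adherens junctions and desmosomes. They are the rows of the deposited expression table whose symbol is a numbered claudin or Cldnd1, or 1 of 43 listed names (5 claudins, occludin, the junctional adhesion molecules, polarity scaffolds, cadherins, catenins, nectins and desmosomal proteins). All 43 names were found and 7 more claudins matched the pattern, so 50 of the 14145 genes in the table are members, 12 of them claudins. The study compared primary tubular epithelial cells, grown out of mouse kidney in serum-containing medium and left untreated, from control animals (WT, Aldh2Ctrl) and from animals lacking Aldh2 in the tubular epithelium (KO, Aldh2TEC-KO). There were 4 libraries of each kind. The labels give no age, sex or strain and do not name the promoter behind the deletion, nor whether the libraries come from separate animals, so p-values measure only library-to-library spread, part of which may be technical. The genotype field of the knockouts runs from ALDH2 to ALDH5, so groups were taken from the titles. Aldh2 itself was at 23.69 to 31.08 FPKM among the controls and at 0.88 to 1.64 FPKM among the knockouts (log2 difference -3.61).

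Tight junctions seal the space between epithelial cells near the apical surface. Claudins form the strands and set which ions pass, and each nephron segment has its own set of them: claudin 2 in the proximal tubule, claudins 16 and 19 in the thick ascending limb, and claudins 3, 4, 7 and 8 in the distal nephron and collecting duct. Zonula occludens proteins tie the strands to actin, the Par and Crumbs complexes mark the apical side, and below them cadherins with their catenins, nectins with afadin, and desmosomes hold the cells together.

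The libraries differed in ways that touch the results. Values are FPKM, read counts scaled by gene length and library size, and the depth recovered from them (reads or fragments) ran from 17040000 to 17750000 for the controls and from 17890000 to 18750000 for the knockouts. Every control library and knockout 3 and 4 were male by Xist and Y-linked transcripts, and knockout 1 and 2 were female. Genes with long transcripts stood lower in knockout 3 and 4. Each gene's log2 level was taken relative to its mean over the 8 libraries, and genes were put in 3 classes by transcript length. The median of the longest class minus that of the shortest was 0.13 to 0.29 in the controls. It was -0.17, 0.17, -0.45 and -0.33 across knockout 1 to 4. All 9 general tubular markers were measured, with Krt8 at 266.88 FPKM or more in each library. Of these 9, Epcam, Cdh1 and Cdh16 are themselves members. The knockout mean on the log2 scale was lower in 4 and higher in 5. Their summed level was 1462 to 3251 FPKM among the controls and from 870 FPKM in knockout 2 to 6662 FPKM in knockout 3. Segment markers were thin (6 of 14 proximal tubule genes, 2 of 9 loop of Henle genes and 5 of 10 principal cell genes were in the table). Macrophage markers (12 of 12 measured, 0 called) had the higher knockout mean on the log2 scale in 11 of 12, with a median log2 difference of 1.88. Their summed level was 1053, 93.7, 109 and 119 FPKM across control 1 to 4 and 585, 1744, 231 and 1133 FPKM across knockout 1 to 4, so every control except control 1 lay below every knockout. The part of these shifts in the results was not tested.

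No junction gene passed the threshold across the 8 libraries. In limma on log2(FPKM + 1), with Benjamini-Hochberg adjustment over all genes at 0.05, 0 of 50 members were called, where 0.0778% of all genes were (11 of 14145). An unadjusted p below 0.05 was given to 18 members (36.0%), against 19.2% of all genes, and in all 18 the knockout mean was the lower, a direction and p reached by 11.6% of all genes. The log2 difference was below 0 for 44 of 50 members (88.0%), against 55.5% of all genes, and its median was -0.55, where the median over all genes was -0.06. Among the male libraries alone it was below 0 for 31 of 50 members (62.0%), near the 56.5% of all genes, and its median was -0.25. With no female control, a fit with sex as a covariate gives these same differences by construction and is not a separate estimate. In 8 members every knockout library lay below every control (16.0%, against 6.86% of all genes), and in 0 members every knockout library lay above (4.76% of all genes). Dsg2 is the 1 member that in the authors' deposited table has an adjusted p below 0.05 (0.0372), against 0.375% of all genes.

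**Figure D1:**
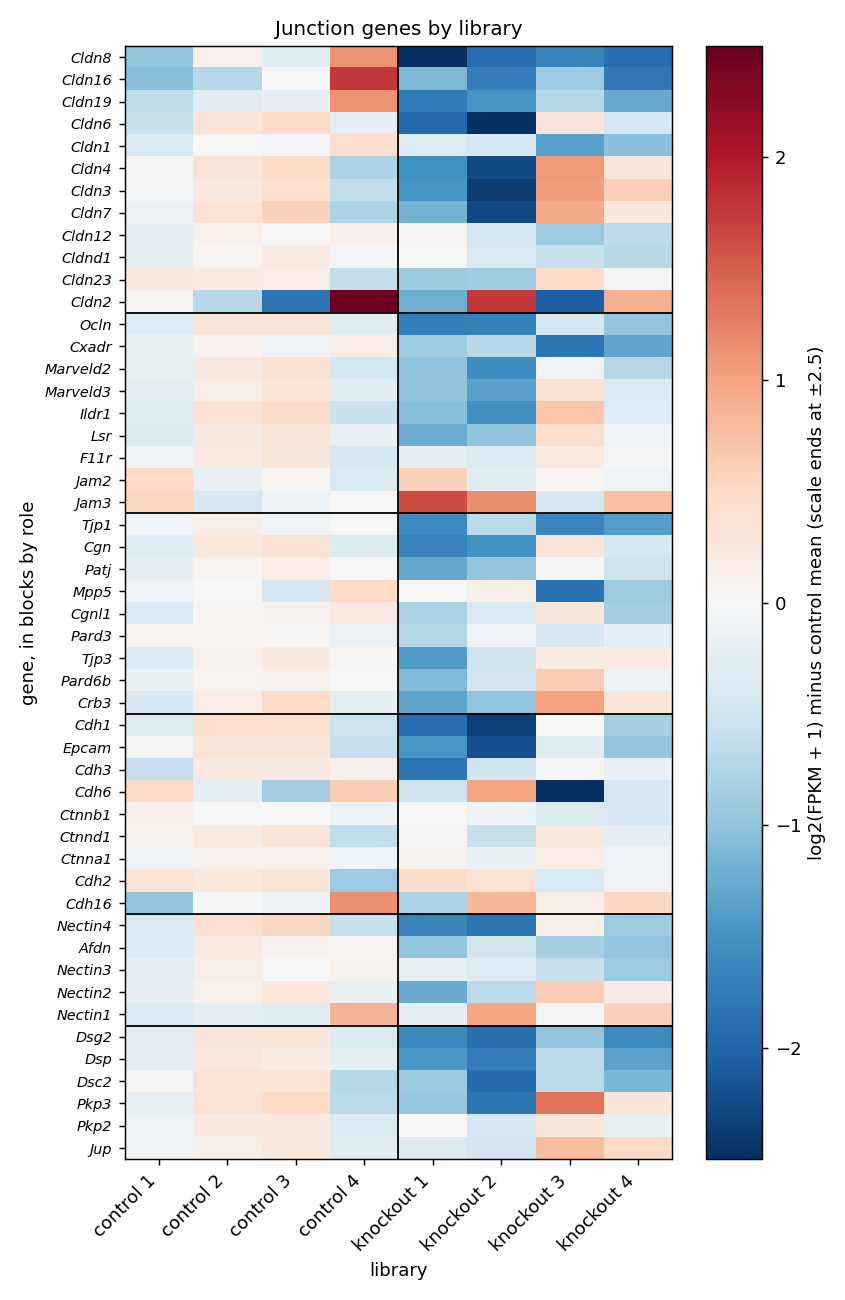
Level of the 50 junction genes (rows, in blocks by role) in each library (columns), as log2(FPKM + 1) minus the mean of the 4 controls; blue is lower and red higher. Knockout 1 and 2 are blue in most rows, while knockout 3 and 4 are red in the rows of Cldn3, Crb3 and Jup and blue in those of Tjp1, Cxadr and Dsg2.

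The direction was not carried alike by the 4 knockout libraries. Both female knockouts, 1 and 2, lay below every control in 31 of 50 members (62.0%), a pattern shown by 12.7% of all genes. Both male knockouts, 3 and 4, lay below every control in 15 members (30.0%), against 36.3% of all genes, a share near that background. Knockout 1 and 2 were above every control in 2 members, Cdh2 and Jam3 (12.6% of all genes), and knockout 3 and 4 in another 2, Cldn3 and Jup (24.9% of all genes). Relative to the control mean, the median member stood at -1.01 and -0.66 in knockout 1 and 2 and at -0.04 and -0.39 in knockout 3 and 4, while the controls ranged from -0.20 to 0.21. The median over all genes was -0.06, 0.04, -0.17 and -0.08 across knockout 1 to 4. The summed level of the 50 genes was 2468 to 3281 FPKM among the controls, 1548 and 1605 FPKM for knockout 1 and 2, and 3591 and 2591 FPKM for knockout 3 and 4. With no female control, sex and any other property of knockout 1 and 2 cannot be told apart. In these bulk libraries, fewer cells of a type and less RNA per cell cannot be told apart either.

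The 8 genes whose groups did not overlap come from every role except the classical cadherins and catenins: Cldn8, Cldn19, Ocln, Cxadr, Tjp1, Afdn, Dsg2 and Dsp. Their transcripts are long, with a median exon-union length of 7606 bases against 4010 for the other 42 members and 3954 over all genes with a length. Over all 50 members length and log2 difference showed little relation (Pearson 0.06, Spearman -0.01, genes sharing the same libraries), where over all genes the values were -0.30 and -0.39. That difference averages knockouts whose length trend was unlike (-0.17, 0.17, -0.45 and -0.33 across knockout 1 to 4). The relation was not computed for the male libraries alone, so the part of length in their values was not tested. After removal of the length and GC trends from each library, the 8 log2 differences ran from -0.43 for Afdn to -2.04 for Cldn8, and the lowest adjusted p by limma, 0.0702, belonged to both Tjp1 and Cxadr.

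**Figure D2:**
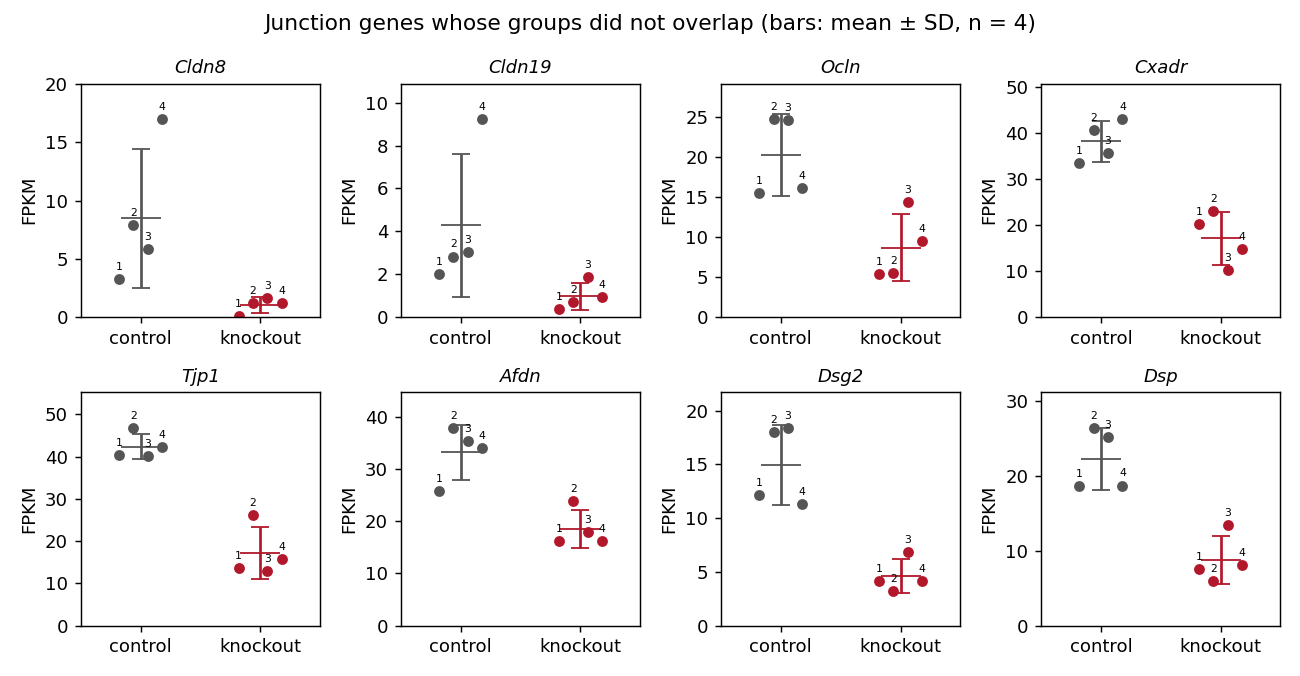
FPKM of the 8 junction genes whose groups did not overlap, 1 panel a gene; each point is a library, numbered by replicate, and bars give mean and SD (n = 4). In Tjp1 the controls sit between 40.19 and 46.77 FPKM and the knockouts between 12.97 and 26.22 FPKM, and in Cldn8 the controls spread from 3.24 to 16.99 FPKM.

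Among tight junction scaffolds, Tjp1 stood farthest apart. Tjp1 encodes zonula occludens 1, the PDZ protein that binds claudins and occludin on one side and actin on the other. It was at 40.37, 46.77, 40.19 and 42.18 FPKM across control 1 to 4 and at 13.65, 26.22, 12.97 and 15.70 FPKM across knockout 1 to 4. Controls lay close together, and the highest knockout, knockout 2, was well under the lowest control. The means were 42.4 ± 3.06 and 17.1 ± 6.17 FPKM (SD, n = 4), a log2 difference of -1.31 (SE 0.22, limma adjusted p = 0.0743). It was -1.50 among the male libraries alone (limma adjusted p = 0.00324), a comparison that called 44.4% of all genes, and -1.12 with knockout 1 and 2 as the only knockouts.

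Patj, the Crumbs-complex scaffold with many PDZ domains, was at 10.20 to 13.46 FPKM among the controls and at 4.36, 5.59, 11.68 and 8.08 FPKM across knockout 1 to 4. Knockout 3 overlapped the controls (log2 difference -0.69, SE 0.26, limma adjusted p = 0.216; -0.27 and adjusted p = 0.242 among the male libraries). Pard3, the organiser of the Par polarity complex, was at 6.31 to 7.53 FPKM and at 3.91, 6.48, 5.16 and 5.86 FPKM (log2 difference -0.37, SE 0.18, limma adjusted p = 0.290; -0.32 and adjusted p = 0.0682 among the male libraries), and that difference was 0.00 with the length and GC trend removed. Cgnl1, paracingulin, the most abundant scaffold of the group per length, was at 42.65 to 63.58 FPKM among the controls and at 30.98, 41.57, 66.90 and 29.51 FPKM among the knockouts, so knockout 3 lay above every control (log2 difference -0.44, SE 0.27, limma adjusted p = 0.368; -0.29 and adjusted p = 0.494 among the male libraries, and -0.69 without knockout 3). The actin-linked protein cingulin (Cgn) read 5.11 and 5.96 FPKM for knockout 1 and 2, under the control range of 14.42 to 24.19 FPKM, and 22.78 and 13.33 FPKM for knockout 3 and 4. Mpp5, the Crumbs adaptor also called Pals1, showed the reverse: 10.13 and 11.25 FPKM for knockout 1 and 2, within the controls (7.29 to 14.65 FPKM), and 2.03 and 4.86 FPKM for knockout 3 and 4. The small apical membrane protein Crb3 was at 8.09, 10.44, 44.72 and 26.70 FPKM among the knockouts, with knockout 1 and 2 under, knockout 3 over and knockout 4 within the control range of 16.29 to 30.64 FPKM. Tjp3 and Pard6b had log2 differences of -0.37 and -0.27. In all, 9 of 9 scaffolds had the lower mean in the knockouts on the log2 scale (55.5% of all genes did). Knockout 1 and 2 were below every control in 7 of them, against 12.7% of all genes. Knockout 3 and 4 were below every control in 3 of 9, a share near the 36.3% of all genes.

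Occludin and the receptor Cxadr were the other tight junction membrane proteins without overlap. Ocln, a strand protein of the tight junction, was at 15.54, 24.77, 24.73 and 16.10 FPKM across control 1 to 4 and at 5.39, 5.49, 14.38 and 9.51 FPKM across knockout 1 to 4. Knockout 1 and 2 were the lowest, and knockout 3 lay just under control 1. The log2 difference was -1.20 (SE 0.31, limma adjusted p = 0.141; -0.71 and adjusted p = 0.0642 among the male libraries). Cxadr, the coxsackievirus and adenovirus receptor, an immunoglobulin-type adhesion molecule of tight junctions, was at 33.45, 40.71, 35.65 and 43.00 FPKM against 20.21, 23.13, 10.19 and 14.82 FPKM. Here the male knockouts were the lowest, and no library came near the other group. Means were 38.2 ± 4.41 and 17.1 ± 5.74 FPKM (SD, n = 4), with a log2 difference of -1.17 (SE 0.24, limma adjusted p = 0.0996; -1.55 and adjusted p = 0.00324 among the male libraries).

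Tricellulin (Marveld2) seals the corners where several cells meet, and its gene lies next to Ocln on GRCm38 chromosome 13 (100496507 to 100616971 for the pair, 43.2 kb between them, no deposited gene in between). As for Ocln, knockout 3 was the highest knockout and knockout 4 the next, at 5.41, 3.40, 11.26 and 6.87 FPKM, against 8.58 to 15.98 FPKM among the controls (log2 difference -0.84, SE 0.32, limma adjusted p = 0.215; -0.40 and adjusted p = 0.291 among the male libraries). The corner proteins Lsr and Ildr1, which recruit tricellulin, and Marveld3 showed knockout 1 and 2 below every control: Lsr was at 14.68 and 17.50 FPKM there, at 49.56 and 34.21 FPKM for knockout 3 and 4, and at 28.37 to 44.80 FPKM among the controls. F11r, junctional adhesion molecule A and the most abundant of this group, was at 55.61 to 90.17 FPKM among the controls and at 58.56 to 85.31 FPKM among the knockouts, an overlap over nearly the whole range (log2 difference -0.10, 95% interval -0.56 to 0.37, limma adjusted p = 0.799; 0.08 and adjusted p = 0.789 among the male libraries). Jam3, a junctional adhesion molecule also made by endothelium and mesenchyme, was at 1.17 to 3.20 FPKM among the controls and at 7.94, 5.48, 1.15 and 3.82 FPKM among the knockouts (log2 difference 0.78, SE 0.41, limma adjusted p = 0.315). Of the endothelial markers (4 of 10 measured, 0 called) 3 had the lower knockout mean and Egfl7 the higher. Their summed level was 5.57 to 7.48 FPKM among the controls and 2.06 to 3.58 FPKM among the knockouts. Pecam1, Cdh5 and Kdr were not among those measured. Fibroblast and pericyte markers (7 of 10 measured) summed to 479, 67.7, 83.2 and 48.2 FPKM across control 1 to 4. Across knockout 1 to 4 they summed to 38.2, 39.4, 55.7 and 48.8 FPKM, so control 1 stood far above the rest and control 4 lay within the knockouts. The part of these markers in the Jam3 values was not tested. Jam2 stayed at or below 1.65 FPKM in every library.

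Cldn4, a barrier claudin of the collecting duct, was the most abundant claudin per length in every library. Summed claudin level was 892 to 1459 FPKM among the controls, 486 and 372 FPKM for knockout 1 and 2, and 1935 and 1252 FPKM for knockout 3 and 4. Cldn4 held 40.7% to 60.8% of it in the controls, 45.1% and 35.9% in knockout 1 and 2, and 68.2% and 61.8% in knockout 3 and 4. Its values were 645.72, 787.16, 864.15 and 362.82 FPKM across control 1 to 4 and 219.54, 133.89, 1320.60 and 774.39 FPKM across knockout 1 to 4. Knockout 1 and 2 were below the lowest control and knockout 3 above the highest, so the log2 difference of -0.60 (SE 0.67, 95% interval -2.11 to 0.91, limma adjusted p = 0.622) averages libraries that lie on both sides. Among the male libraries alone it was 0.68 (limma adjusted p = 0.226), and across the 8 libraries it was -0.29 without knockout 1, -0.06 without knockout 2 and -1.15 without knockout 3.

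**Figure D3:**
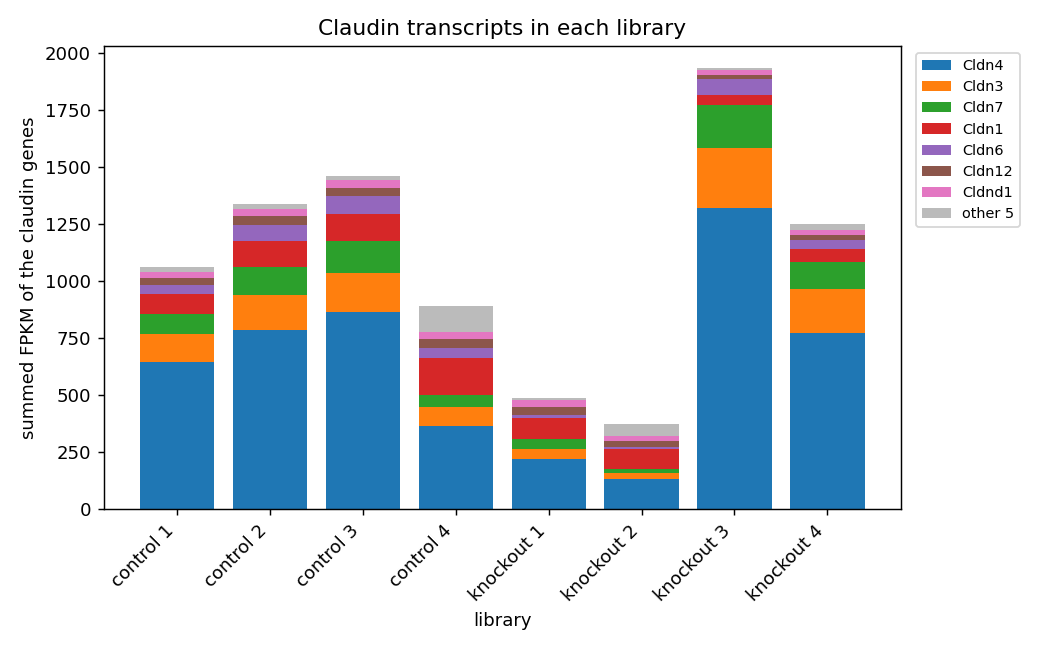
Summed FPKM of the 12 claudin genes in each library, stacked by gene with the 5 least abundant together in grey. Knockout 1 and 2 have the shortest columns (486 and 372 FPKM) and knockout 3 the tallest (1935 FPKM), and Cldn4 is the largest block in each column.

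Cldn3 and Cldn7, which share distal segments with Cldn4, were likewise highest in knockout 3 and lowest in knockout 2. Cldn3, whose gene lies 39.3 kb from Cldn4 on chromosome 5 (134945119 to 134987472 for both, transcribed in opposite directions), was at 83.50 to 169.83 FPKM among the controls and at 45.21, 23.88, 265.64 and 192.26 FPKM across knockout 1 to 4. Cldn7 was at 54.95 to 143.61 FPKM and at 41.57, 19.22, 186.06 and 116.79 FPKM. Cldn6, a claudin of embryonic epithelium, was at 37.91 to 80.39 FPKM and at 13.78, 7.13, 69.99 and 42.14 FPKM, low in knockout 1 and 2 and within the controls in knockout 3 and 4. Principal cell markers (5 of 10 measured, Aqp2 and Aqp3 not among them) were likewise low in knockout 1 and 2. Their summed level was 30.4 to 43.2 FPKM among the controls and 9.28 and 7.61 FPKM for knockout 1 and 2. It was 34.0 FPKM for knockout 3, within the controls. In knockout 4, where Cldn3 lay above every control, it was 23.5 FPKM, below every control. The part of that marker shift in the claudin values was not tested.

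Cldn8 and Cldn19 were the claudins without overlap. Cldn8, which pairs with claudin 4 in the collecting duct, was at 3.24, 7.87, 5.81 and 16.99 FPKM across control 1 to 4 and at 0.05, 1.21, 1.61 and 1.22 FPKM across knockout 1 to 4, where the lowest value stands for 2 reads. Its log2 difference of -2.11 (SE 0.44, limma adjusted p = 0.0996) was the largest among the members, and it was -1.78 among the male libraries (limma adjusted p = 0.0323). Cldn19, of the thick ascending limb, was at 2.01, 2.82, 3.04 and 9.23 FPKM against 0.37, 0.68, 1.85 and 0.94 FPKM, and the gap between control 1 and knockout 3 was narrow (log2 difference -1.30, SE 0.38, limma adjusted p = 0.160; -0.99 and adjusted p = 0.144 among the male libraries). Its partner Cldn16 was at 0.74, 1.20, 2.59 and 11.31 FPKM and at 0.65, 0.10, 0.91 and 0.05 FPKM, with knockout 3 inside the control range (log2 difference -1.39, limma adjusted p = 0.226). Control 4 was the highest library for Cldn8, Cldn16 and Cldn19. The loop of Henle marker Ptger3 was likewise highest there, at 6.70 FPKM against 0.77 to 1.30 FPKM in the other controls and 0.23 to 1.77 FPKM among the knockouts. The only other loop of Henle marker measured was Cldn16 itself.

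Cldn1, Cldn12 and Cldnd1 were lowest in the male knockouts. Cldn1, a sealing claudin of parietal and other epithelia, was at 90.36, 117.07, 115.69 and 159.95 FPKM across control 1 to 4 and at 94.49, 88.17, 45.37 and 57.17 FPKM across knockout 1 to 4. Only knockout 1 reached the control range (log2 difference -0.79, SE 0.28, limma adjusted p = 0.199; -1.20 and adjusted p = 0.00750 among the male libraries). Cldn12 was at 28.73 to 36.35 FPKM against 33.95, 25.25, 17.31 and 20.81 FPKM, and Cldnd1 at 26.86 to 36.16 FPKM against 31.23, 23.97, 20.89 and 18.91 FPKM. As a share of all claudin transcripts Cldn1 was 7.93% to 17.9% in the controls, 19.4% and 23.7% in knockout 1 and 2, and 2.34% and 4.57% in knockout 3 and 4, so the female knockouts lay above and the male knockouts below the control range. Cldn2, the cation pore of the proximal tubule, varied most: 14.25, 8.01, 3.10 and 78.99 FPKM among the controls and 5.23, 48.53, 2.53 and 26.09 FPKM among the knockouts (log2 difference -0.15, 95% interval -2.42 to 2.12). Proximal tubule markers (6 of 14 measured) were highest in the same libraries, at 77.1 FPKM summed in control 4 and 57.4 FPKM in knockout 2, against 13.1 to 26.5 FPKM in the other 6. Cldn23 lay at or below 2.63 FPKM in every library.

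**Figure D4:**
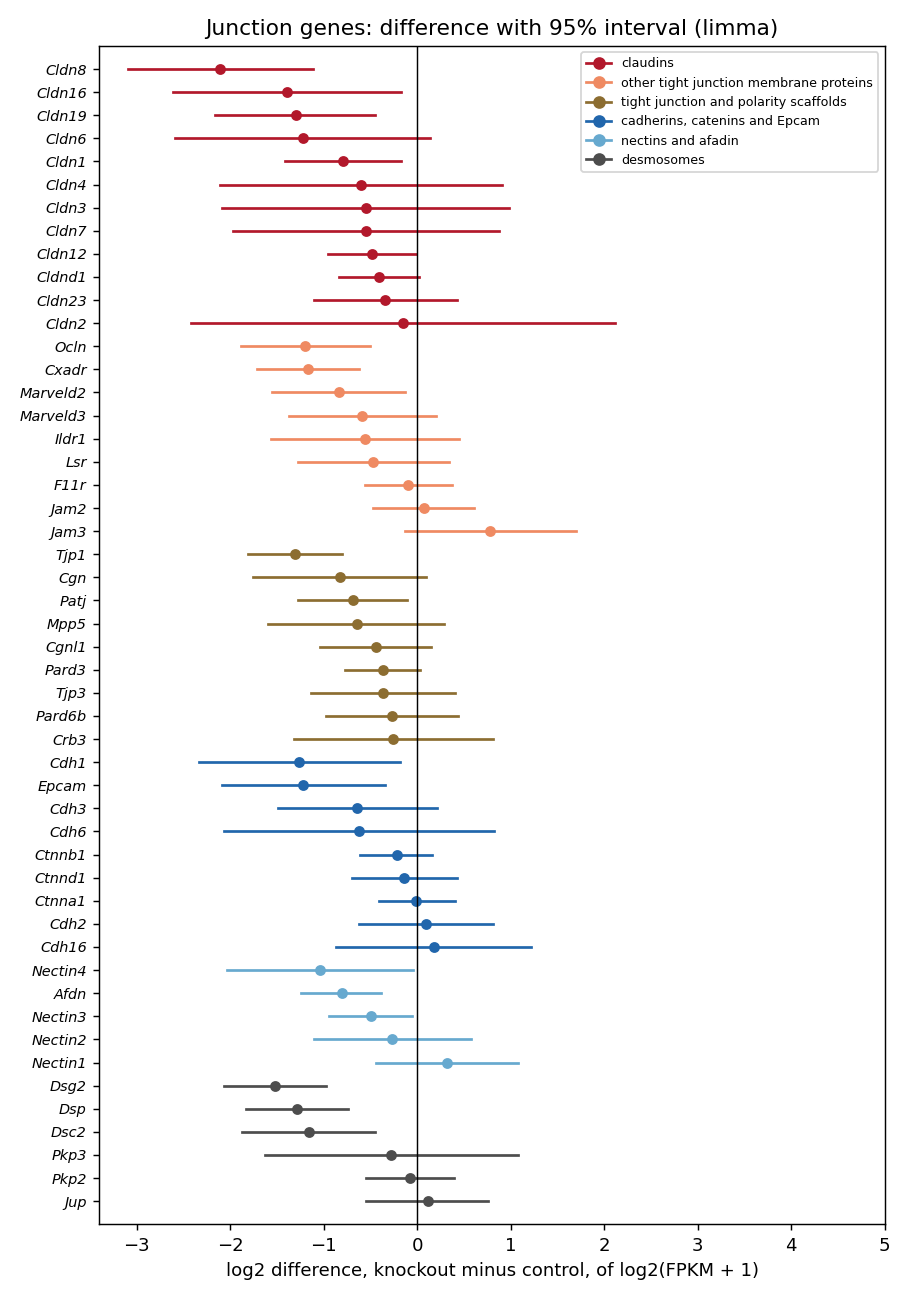
Log2 difference of each junction gene, knockout minus control on the log2(FPKM + 1) scale, as a point with its 95% interval from limma, coloured by role. Intervals are short for Tjp1 (-1.81 to -0.81) and Dsg2 (-2.07 to -0.98) and long for Cldn2 (-2.42 to 2.12) and Cldn4 (-2.11 to 0.91).

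Of the adherens junction genes, E-cadherin and Epcam had lower knockout means, with 3 of 4 knockout libraries below every control. The groups overlapped in each catenin, although knockout 3 and 4 lay below every control in Ctnnb1. Cdh1, E-cadherin, the calcium-dependent adhesion molecule of distal tubule cells, was at 125.43, 208.42, 209.78 and 107.82 FPKM across control 1 to 4 and at 41.31, 30.10, 155.82 and 87.81 FPKM across knockout 1 to 4. Knockout 3 lay between the controls and the other knockouts below them (log2 difference -1.26, SE 0.48, limma adjusted p = 0.220). That difference was -0.41 among the male libraries (limma adjusted p = 0.392) and -2.11 with knockout 1 and 2 as the only knockouts. Epcam, an epithelial adhesion protein that also stabilises claudin 7, was at 125.83, 159.34, 157.42 and 85.71 FPKM and at 45.87, 27.37, 107.36 and 65.05 FPKM (log2 difference -1.22, SE 0.39, limma adjusted p = 0.177; -0.61 and adjusted p = 0.155 among the male libraries), with knockout 3 again the only overlap. Cdh3, P-cadherin, whose gene lies 46.1 kb from Cdh1 on chromosome 8, was at 28.04 to 50.12 FPKM among the controls and at 11.30, 29.74, 41.14 and 37.23 FPKM among the knockouts (log2 difference -0.64, SE 0.38, limma adjusted p = 0.363; -0.12 and adjusted p = 0.727 among the male libraries). It was -0.24 without knockout 1, its lowest library.

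Catenins link cadherins to actin, and Ctnna1, alpha-catenin, was the most abundant gene of this role per length. It was at 209.97 to 243.53 FPKM among the controls and at 202.34 to 252.84 FPKM among the knockouts, with a log2 difference of -0.01 (95% interval -0.41 to 0.40, limma adjusted p = 0.989; 0.03 and adjusted p = 0.892 among the male libraries). Ctnnb1, beta-catenin, and Ctnnd1, p120-catenin, had differences of -0.22 and -0.14. Ctnnb1 was at 137.70 to 163.48 FPKM among the controls and at 148.83, 138.44, 118.89 and 111.53 FPKM across knockout 1 to 4. It was 1 of the 13 members called among the male libraries alone (26.0%, against 44.4% of all genes). Cdh2, N-cadherin, was at 70.71, 66.30, 70.05 and 29.09 FPKM among the controls and at 77.39, 72.23, 42.49 and 52.64 FPKM among the knockouts, so knockout 1 and 2 were the highest libraries. Cdh16, kidney-specific cadherin, ran from 57.77 to 255.16 FPKM among the controls and from 66.11 to 203.97 FPKM among the knockouts, and Cdh6 from 22.85 to 66.11 FPKM and from 6.62 to 85.34 FPKM. Of the summed level of these 5 cadherins, Cdh1 made up 21.4% to 45.8% in the controls and 18.3%, 7.14%, 41.8% and 23.5% across knockout 1 to 4, and Cdh2 5.77% to 20.7% and 34.3%, 17.1%, 11.4% and 14.1%.

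Nectins start cell contacts and afadin ties them to actin. Afdn, afadin, was at 25.72, 37.87, 35.28 and 34.12 FPKM across control 1 to 4 and at 16.22, 23.81, 17.97 and 16.15 FPKM across knockout 1 to 4. Its groups were separated by the step from control 1 to knockout 2 (log2 difference -0.81, SE 0.19, limma adjusted p = 0.121; -0.91 and adjusted p = 0.00627 among the male libraries). Nectin3 was at 10.32 to 13.82 FPKM among the controls and at 10.80, 9.63, 7.91 and 6.15 FPKM among the knockouts (log2 difference -0.50, SE 0.20, limma adjusted p = 0.226; -0.74 and adjusted p = 0.00946 among the male libraries), but 0.04 with the length and GC trend removed. Nectin4 was at 6.31 to 14.54 FPKM and at 2.42, 2.10, 11.16 and 4.85 FPKM (log2 difference -1.04, SE 0.44, limma adjusted p = 0.245; -0.35 and adjusted p = 0.524 among the male libraries). Nectin2, the most abundant nectin per length, was at 50.78 to 70.43 FPKM among the controls, below them at 23.91 and 36.63 FPKM for knockout 1 and 2, above them at 90.96 FPKM in knockout 3 and within them at 67.53 FPKM in knockout 4 (log2 difference -0.27, SE 0.37, limma adjusted p = 0.693; 0.42 and adjusted p = 0.113 among the male libraries). Nectin1 had a log2 difference of 0.32 (SE 0.34).

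Desmosomes anchor keratin filaments at the membrane, and their cadherins and plakin separated the groups more than their armadillo proteins did. Dsg2, desmoglein 2, was at 12.14, 17.97, 18.38 and 11.31 FPKM across control 1 to 4 and at 4.11, 3.22, 6.85 and 4.16 FPKM across knockout 1 to 4. All 4 knockouts were low, with means of 14.9 ± 3.74 and 4.59 ± 1.57 FPKM (SD, n = 4) and a log2 difference of -1.52 (SE 0.24, limma adjusted p = 0.0636; -1.30 and adjusted p = 0.00910 among the male libraries). Dsp, desmoplakin, which joins the plaque to keratin, was at 18.55, 26.35, 25.16 and 18.68 FPKM against 7.51, 5.94, 13.42 and 8.11 FPKM (log2 difference -1.29, SE 0.24, limma adjusted p = 0.0996; -1.0 and adjusted p = 0.0147 among the male libraries). Dsc2, desmocollin 2, was at 8.70, 11.04, 11.10 and 4.92 FPKM against 4.01, 1.53, 5.05 and 3.33 FPKM, where knockout 3 just passed control 4 (log2 difference -1.16, SE 0.32, limma adjusted p = 0.154; -0.90 and adjusted p = 0.0593 among the male libraries). Jup, plakoglobin, was at 62.24 to 90.53 FPKM among the controls, at 59.39 and 55.29 FPKM for knockout 1 and 2, and at 131.28 and 106.22 FPKM for knockout 3 and 4. Its log2 difference was 0.11 (SE 0.29, limma adjusted p = 0.851), and 0.62 among the male libraries (limma adjusted p = 0.0319). Pkp3, plakophilin 3, was at 8.12 to 19.42 FPKM against 6.49, 3.12, 36.12 and 17.03 FPKM, and Pkp2 at 15.70 to 23.66 against 14.52 to 24.83 FPKM. Krt8, a keratin that desmosomes bind, was at 469.01 to 1459.87 FPKM among the controls, at 699.46 and 266.88 FPKM for knockout 1 and 2, and at 3553.02 and 1547.02 FPKM for knockout 3 and 4. Jup, Pkp3 and Krt8 thus all had their highest value in knockout 3.

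Calls among the members depended on the libraries that entered, the model and the weights. With sex as a covariate 12 of 50 members passed (against 34.2% of all genes). Among the male libraries alone 13 of 50 members passed (26.0%; 12 lower and Jup higher), against 44.4% of all genes, and 26 passed by limma-voom with quality weights (52.0%, against 53.1% of all genes). Without knockout 2 there were 6, Afdn, Cldn8, Cxadr, Dsg2, Dsp and Tjp1, all lower (12.0%, against 8.05% of all genes). With knockout 1 and 2 as the only knockouts 0 members passed in limma (0.0990% of all genes did), although the median member difference was then -0.95.

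Of 23 measured further scaffolds and polarity genes 0 passed and 18 had the lower knockout mean on the log2 scale (median difference -0.29), where 55.5% of all genes did. Prkci, the atypical protein kinase C of the Par complex, was at 48.55 to 71.39 FPKM against 30.77 to 39.54 FPKM without overlap (log2 difference -0.75, limma adjusted p = 0.125), and Shroom2, an actin-binding junction protein, at 12.11 to 13.97 FPKM against 6.75 to 10.33 FPKM (log2 difference -0.57, limma adjusted p = 0.164). Of 13 further adherens junction genes 0 passed and 10 were lower (median -0.37). Lima1, an actin linker, had a log2 difference of -0.64, and Vcl, vinculin, was at 57.96 to 78.34 FPKM against 26.38 to 55.60 FPKM (-0.67, limma adjusted p = 0.200). In the further desmosome list (6 measured, 0 passed, median -0.31) the genes of lowest p were Ppl, periplakin, at -0.50 and Pkp1 at -0.64. Gap junction genes (5 measured, 0 passed, median -0.08) included Gja1, connexin 43, at 7.80 to 19.89 FPKM against 5.14 to 8.18 FPKM (log2 difference -0.96, limma adjusted p = 0.155), and Gjb2 at -1.40.

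Of 17 measured factors known to act on junction genes, 1 passed. Ehf, an epithelial ETS factor, fell by 1.91 on the log2 scale (SE 0.19, limma adjusted p = 0.0152), with the controls at 6.77 to 10.90 FPKM and the knockouts at 1.15 to 1.74 FPKM. That call was lost with the replicate number as a block (limma adjusted p = 0.0931), after removal of the length and GC trends (0.0715), and in 5 of 8 fits without 1 library: control 1, control 2, control 3, knockout 1 or knockout 4 (limma adjusted p over the 8 fits 0.0179 to 0.153). Grhl2, a Grainyhead-like activator of Cdh1 and claudin genes, was at 5.67, 8.10, 7.44 and 4.77 FPKM across control 1 to 4 and at 1.28, 1.32, 3.57 and 2.32 FPKM across knockout 1 to 4, without overlap and with its lowest levels in knockout 1 and 2 (log2 difference -1.30, SE 0.27, limma adjusted p = 0.0996; -0.92 among the male libraries).

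Promoter sequence was read because many members were low in the same libraries. RefSeq promoter windows on GRCm38.p6, 250 bases before to 50 after a transcript start, were found for 33 of 50 members (46 windows). Of 9 motifs searched on both strands after the values were seen, the E-box CAGGTG, which Snail and Zeb repressors can bind, was in 45.7% of the members' windows. It was in 18.3% of the 12697 windows of all deposited genes (20.2% of all 32851 windows). The repressor genes Snai1, Snai2, Zeb1 and Zeb2 had log2 differences of -0.17, 0.18, 0.06 and -0.19 (limma adjusted p 0.614, 0.837, 0.939 and 0.828). Their levels varied among the knockouts. Zeb1 was at 4.94, 4.80, 0.75 and 1.74 FPKM across knockout 1 to 4, against 1.40 to 4.03 FPKM among the controls. Zeb2 was at 3.25, 5.64, 0.40 and 1.17 FPKM, against 1.38 to 4.22 FPKM. Snai2 was at 4.17, 1.38, 0.55 and 1.23 FPKM, against 0.29 to 3.84 FPKM. Snai1 lay within the controls in knockout 1 and 2. Only Zeb1 was above every control in both of these. The part of the repressor genes in the member values was not tested. The shares for the other motifs, members' windows first and deposited genes' second, were closer or rested on few windows: AACNNGTT (4.35% and 3.36%), AACCGGTT (0% and 0.236%), CCGGAAGT (10.9% and 7.94%), GGAAG (69.6% and 75.7%, and part of the motif before it), TGANTCA (8.70% and 5.33%), GGGGCGGGG (21.7% and 21.0%), TATAAA (13.0% and 7.15%) and the HNF1 motif (0% and 0.0473%). AACCGGTT is a special case of AACNNGTT. Knockout 1 and 2 lay below every control for 15 of the 17 members with a CAGGTG in a window (88.2%) and for 8 of the 16 without; over all deposited genes with a window the shares were 18.0% and 11.7%. These are descriptions of letters in a window, with no test, and do not show a bound site.

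The 250 bases before the start are printed for 4 members that show these patterns, 5′ to 3′ on the gene's own strand and with CAGGTG or its reverse complement CACCTG in capitals. Cldn4 (chr5:134946935-134947184, minus strand), Epcam (chr17:87635729-87635978, plus strand) and Pard6b (chr2:168080754-168081003, plus strand) were low in knockout 1 and 2 and hold the motif. Tjp1 (chr7:65371245-65371494, minus strand) was low in all 4 knockouts and holds none in this stretch. Ocln and Dsp, also below every control in all 4 knockouts, do hold the motif in a window.
Cldn4: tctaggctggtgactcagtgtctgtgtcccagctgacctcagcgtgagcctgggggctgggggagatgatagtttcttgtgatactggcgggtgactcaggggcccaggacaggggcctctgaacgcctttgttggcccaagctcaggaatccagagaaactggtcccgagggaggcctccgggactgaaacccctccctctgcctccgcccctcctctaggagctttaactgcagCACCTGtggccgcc
Epcam: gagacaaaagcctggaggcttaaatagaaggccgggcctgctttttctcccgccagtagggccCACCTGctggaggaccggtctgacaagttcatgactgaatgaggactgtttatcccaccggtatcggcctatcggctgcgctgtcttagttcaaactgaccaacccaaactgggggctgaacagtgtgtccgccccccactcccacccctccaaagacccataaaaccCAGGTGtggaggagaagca
Pard6b: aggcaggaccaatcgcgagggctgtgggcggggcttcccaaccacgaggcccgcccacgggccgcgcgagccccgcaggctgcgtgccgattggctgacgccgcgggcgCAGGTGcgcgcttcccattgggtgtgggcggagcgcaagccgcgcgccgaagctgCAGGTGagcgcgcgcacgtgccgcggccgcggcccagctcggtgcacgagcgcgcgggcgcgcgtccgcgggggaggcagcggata
Tjp1: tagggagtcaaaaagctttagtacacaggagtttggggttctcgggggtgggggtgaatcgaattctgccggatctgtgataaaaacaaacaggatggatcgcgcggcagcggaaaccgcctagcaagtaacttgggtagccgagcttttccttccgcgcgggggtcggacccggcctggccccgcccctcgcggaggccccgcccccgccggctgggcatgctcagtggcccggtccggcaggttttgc
In Cldn4 the CACCTG begins 14 bases before the start, in Epcam the 2 matches begin 187 and 19 bases before it, and in Pard6b they begin 141 and 86 bases before it.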

How the data were processed

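RNA-seq of 8 libraries was read from 1 deposited table. The authors deposited FPKM (the file is named raw counts, but its values carry decimals), beside a log2 fold change, p-value and adjusted p-value of their own comparison. FastQC, STAR 2.4.1d, DESeq2 and GRCm38 are named per the submitters' processing notes; the counter, annotation and filter on rows were not given in the sources used here. No column of values lacked a sample (0 columns).

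Multiplied by GENCODE M21 exon-union lengths, FPKM fell on whole reads (95.0% to 95.5% within 0.05 of a whole number between 1 and 200 reads, 8.9% to 11.1% with a wrong step), which gave the depths; how precisely low genes are known is limited by these reads. Log2(FPKM + 1) was fitted on all 14145 genes using limma 3.58.1 (R 4.3.3) with genotype as the only term and its variance trend, two-sided; this scale understates changes of low genes. The fit was tested on simulated data. By recovered reads no replicate pair was a repeat of the same library. The lowest chi-square per gene between libraries of a group was 11.7, for control 2 and 3, and the next lowest 40.6, for control 1 and 2. These values cannot tell whether libraries share an animal or a culture.

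Members and lists were chosen with earlier results of these data known. Every member may be named with its levels, and full statistics were given, per role, for those of lowest p and the most abundant (24 in all); for other lists, the 2 of lowest p and any past the threshold. Others named (Krt8, Ptger3, Egfl7, Snai1, Snai2, Zeb1, Zeb2) were chosen after their values were seen. Alternatives were other scaling, a replicate block, sex, pseudocounts, filters, limma-voom on the recovered reads, removal of length and GC trends (lowess, span 0.3) and leaving out libraries. Tables used Python 3.11.15, pandas 2.3.3 and numpy 2.4.6.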

Additional observations from a re-analysis of the deposited data

Results flagged for a closer look

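In 6 of 100 gene-by-group sets of 4 libraries, 1 library stood far from the other 3, where chance flags about 1 set in 20. Control 4 was that library in 5 of them: Cldn2 was at 78.99 FPKM, Cldn19 at 9.23 FPKM and Nectin1 at 19.20 FPKM there, above the other controls, and Cdh2 at 29.09 FPKM and Cldn23 at 0.72 FPKM, below them. Cdh3 was at 28.04 FPKM in control 1, below the other controls. Without control 4 the log2 difference of Cldn19 was -0.93, against -1.30 with it.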

How the results depend on the processing

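The number of genes past the threshold, 11 across all 8 libraries, was 1 with a replicate block, 3 with a pseudocount of 0.1, 7 by limma-voom on recovered reads, 2 after removal of the length and GC trends, 4838 with sex as a covariate, 6275 among the male libraries alone and 7505 by limma-voom with quality weights, and leaving out 1 library at a time gave 1 to 1139. Members past it, 0 in the report, were 12 with sex as a covariate, 13 among the male libraries and 26 with quality weights, and 0 to 6 without 1 library. The median log2 difference of the members was -0.95 without knockout 3 and 4 together, against -0.55, -0.25 with sex as a covariate and among the male libraries, and -0.73 to -0.37 without 1 library; the cause of these shifts was not tested. It kept its sign in all alternatives run. Median-ratio scaling, which moved the share of all genes below 0 from 55.5% to 50.5%, left 43 of 50 members below 0. Among the male libraries 31 of 50 were below 0 against 56.5% of all genes. With sex as a covariate the log2 differences are those of the male libraries by construction, so they are not a separate estimate.

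Of 480 values of single members under an alternative, 417 kept direction and side of the threshold, 42 passed it and 21 changed sign. Among the male libraries, and so by construction with sex as a covariate, Cldn4 was at 0.68, Nectin2 at 0.42, F11r at 0.08 and Ctnna1 at 0.03. Ctnna1 was at 0.07 with median-ratio scaling and at 0.18 after removal of the length and GC trends, where Nectin3 was at 0.04 and Pard3 at 0.00. Nectin2 was at 0.07 with quality weights and Jup at -0.41 without knockout 3 and 4. Leaving out 1 library gave -0.06 to 0.05 for Ctnna1, -0.12 to 0.29 for Jup and -0.57 to 0.06 for Nectin2.

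With the replicate number as a block the members' median was -0.55 and 0 members passed. Same-numbered libraries correlated in their deviations at 0.04, -0.20, 0.56 and -0.06, so the numbers were not taken to pair the samples. Genes at 1 to 3 reads in a library, such as Cldn8 and Cldn16, are limited by depth.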
